A study of Drosophila melanogaster with 6 samples.

Results

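The yolk protein genes of Drosophila, Yp1, Yp2 and Yp3, are 3 of the 17483 genes in the deposited table of fly brain RNA. They were found by their symbols, and they had been chosen by their measured FPKM, which was higher in brains of flies fed spermidine than in brains of control flies. Their levels, fold changes and mutual ratios are therefore given as a description without a test. FPKM, the number of sequenced fragments scaled to transcript length and to the size of the library, is a level per length. Yp2 and Yp3 can be compared on this scale, whereas the level of Yp1 against the others depends on an antisense gene inside it, described further on.

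Yolk proteins are the main protein store of the fly egg. Yp1, Yp2 and Yp3 encode the yolk polypeptides, which are made in the fat body of adult females and in the follicle cells of the ovary, and they are related in sequence to lipases. The fat body secretes them into the haemolymph, the circulating fluid of the insect, and the oocyte takes them up through the receptor Yolkless. Their transcription is known to depend on the sex-specific forms of the regulator Doublesex and on nutrition, ecdysone and juvenile hormone.

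Both groups were brains of 15-day-old flies of the strain w1118, which carries a mutation of the eye colour gene white. The 3 control libraries came from flies kept on normal food. The 3 spermidine libraries came from flies whose food also held spermidine, which is a polyamine. The brains were dissected by hand and frozen, and libraries were made with a stranded mRNA kit. The labels give neither the dose of spermidine nor the sex of the flies, and they call the libraries replicates without stating whether these came from separate cultures, so the spread between libraries may be technical.

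All 3 yolk protein genes were at a high level in the controls and at a higher level under spermidine, with no overlap between the groups. In control replicates 1 to 3, Yp1 had an FPKM of 471, 286 and 351. In spermidine replicates 1 to 3 its FPKM was 1468, 1188 and 1364. The lowest library under spermidine was 2.52 times the highest in the controls. The mean was 369 ± 94.2 in the controls and 1340 ± 142 under spermidine (SD, n = 3 each), a ratio of 3.63 and a difference of 1.88 on the log2(FPKM + 1) scale with a standard error of 0.187.

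Yp2 stood furthest apart between the foods. In the controls its FPKM was 702, 654 and 715, and under spermidine it was 3570, 4061 and 4033. Within each food the 3 libraries lay close together, and the lowest under spermidine was 4.99 times the highest in the controls. The means were 690 ± 32.2 and 3888 ± 276 (SD, n = 3 each), a ratio of 5.63 and a log2 difference of 2.49 (SE 0.0857).

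With Yp1 taken without its antisense gene, Yp3 had the highest FPKM of the 3 genes in each control library. Its FPKM there was 1119, 811 and 1000, against 4401, 3695 and 4391 under spermidine. The lowest library under spermidine was 3.3 times the highest in the controls. The mean moved from 977 ± 156 to 4162 ± 405 (SD, n = 3 each), a ratio of 4.26 and a log2 difference of 2.10 (SE 0.146). Within both foods, replicate 2 was the lowest library for Yp3, as it was for Yp1.

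**Figure D1:**
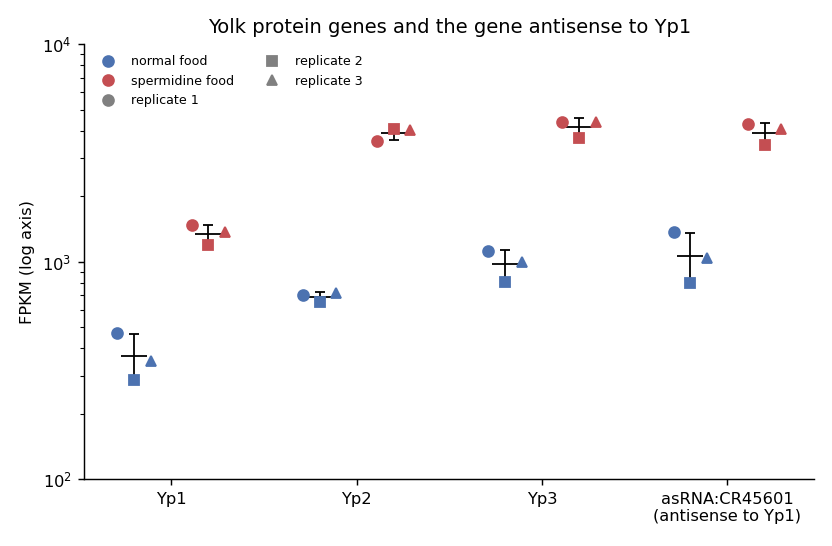
FPKM on a log axis of Yp1, Yp2, Yp3 and the gene antisense to Yp1 in each of the 6 libraries, with the mean and SD of each food in black. The groups do not overlap for any of the 3 yolk protein genes, and the antisense gene sits above Yp1 by about the same distance in each library.

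Among all 10392 genes tested, 17.2% had groups that did not overlap with the spermidine libraries higher, and 10.7% had groups that did not overlap with the spermidine libraries lower. In the limma test with Benjamini-Hochberg adjustment and a threshold of 0.05, 333 genes (3.2%) were higher and 158 (1.52%) lower under spermidine. Higher genes made up 67.8% of those calls, but 29.2% when the FPKM of each library were rescaled to the same sum. Under that scaling the log2 differences of Yp1, Yp2 and Yp3 were 1.78, 2.39 and 2.0. The calls rested on few libraries: without spermidine replicate 3, 49 genes were higher and 6 lower, and leaving out any other library left between 136 and 238 higher and between 41 and 94 lower.

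Together the 3 genes summed to an FPKM of 2293, 1751 and 2066 in the controls and 9439, 8943 and 9788 under spermidine. The summed level was 2036 ± 272 and 9390 ± 425 (SD, n = 3 each), a ratio of 4.61. As a share of the summed FPKM of the tested genes, yolk protein genes took 0.448%, 0.367% and 0.421% in the controls and 1.78%, 1.70% and 1.84% under spermidine. In bulk tissue, a change in the number of cells of a type and a change in RNA per cell cannot be told apart.

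By rank of FPKM within a library, Yp1 stood between 178 and 256 in the controls and between 29 and 46 under spermidine. Yp2 moved from ranks of 104 to 117 into ranks of 3 to 6. Yp3 moved from ranks of 53 to 80 into the same range of 3 to 6. In FPKM gained between the foods, Yp2 (3198) was 2nd, Yp3 (3185) was 3rd and Yp1 (970) was 8th among the tested genes, while by log2 difference they ranked 22, 31 and 45.

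In these 6 libraries the FPKM ratios between the 3 genes differed between the foods. The ratios were not tested, and no share over other pairs of genes was computed. The ratio of Yp1 to Yp2 was 0.672, 0.437 and 0.491 in the controls and 0.411, 0.292 and 0.338 under spermidine. The groups did not overlap, with a gap of 0.026, and the log2 ratio was lower under spermidine by a mean difference of -0.61 (SE 0.234). The ratio of Yp1 to Yp3 was 0.421, 0.353 and 0.351 in the controls and 0.333, 0.321 and 0.311 under spermidine, a gap of 0.0176. Its difference of -0.22 (SE 0.0915) on the log2 scale became -0.13 without control replicate 1, the library with the highest ratio.

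The ratio of Yp2 to Yp3 was 0.627, 0.807 and 0.715 in the controls and 0.811, 1.10 and 0.918 under spermidine. The 2 groups were separated by 0.0047 only, and the log2 difference was 0.39 (SE 0.165), between 0.28 and 0.50 when any library was left out. In spermidine replicate 2 Yp2 was above Yp3, which held in no other library. As shares of the summed FPKM, Yp1 made up 18.0 ± 2.28% in the controls and 14.3 ± 1.17% under spermidine (SD, n = 3 each). Yp2 made up 34.2 ± 3.39% and 41.5 ± 3.80%, and Yp3 47.8 ± 1.34% and 44.3 ± 2.71% (SD, n = 3 each). The share of Yp3 overlapped between the foods, at 46.6% in spermidine replicate 1 and 46.3% in control replicate 2. These shares take Yp1 without the antisense gene described further on.

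**Figure D2:**
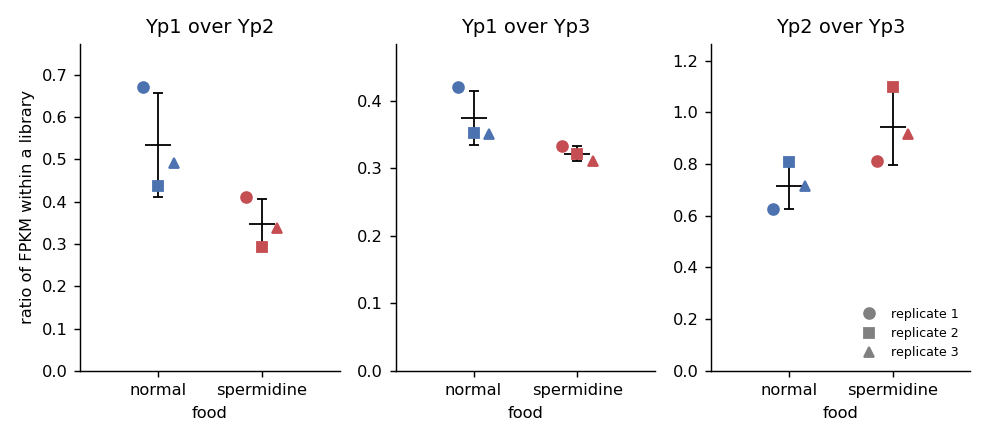
Ratios of FPKM between pairs of yolk protein genes within each of the 6 libraries, with the mean and SD of each food in black and axes starting at 0. Yp1 over Yp2 was lower under spermidine, and for Yp2 over Yp3 the lowest spermidine library (0.811) was next to the highest normal library (0.807).

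Within a food, Yp1 and Yp3 had the same order of libraries and Yp2 had another. In both foods replicate 1 was highest and replicate 2 lowest for Yp1 and for Yp3. For Yp2 the lowest library was control replicate 2 and spermidine replicate 1. The deviations from the mean log2 level of the same food had a correlation of 0.948 between Yp1 and Yp3, 0.0763 between Yp1 and Yp2 and 0.154 between Yp2 and Yp3, each over the same 6 libraries. Over the undivided 6 libraries, where the difference between the foods dominates, the correlations were 0.994, 0.971 and 0.988. Of the 3 genes Yp1 was the most variable in the controls, with a coefficient of variation of 25.5%, against 15.9% for Yp3 and 4.66% for Yp2, while under spermidine the values were 10.6%, 9.73% and 7.09%.

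**Figure D3:**
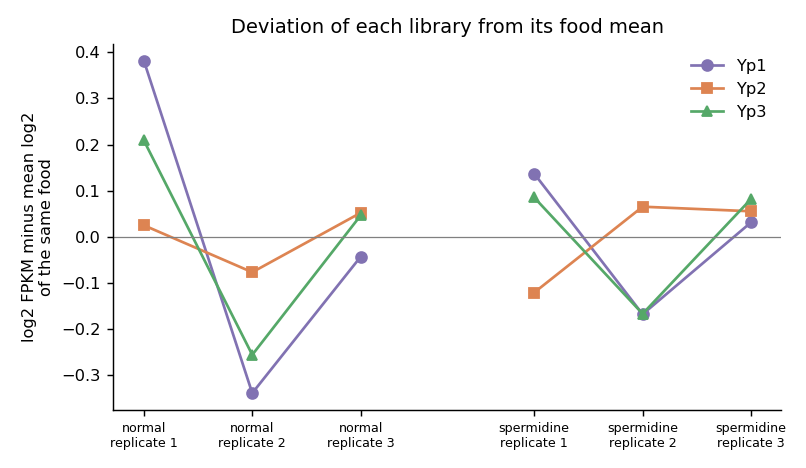
Deviation of each library's log2 FPKM from the mean of its own food for Yp1, Yp2 and Yp3 (lines join the replicates of a food only to guide the eye). Replicate 1 was above and replicate 2 below the food mean for Yp1 and Yp3 in both foods, whereas Yp2 deviated little in the controls and was lowest in spermidine replicate 1.

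The authors' deposited mean normalized counts, which hold 1 value per food, moved in the same direction as the FPKM. In the authors' deposited table Yp1 had a mean count of 19982.6 in the controls and 72629.1 under spermidine, a ratio of 3.63. For Yp2 the means in that table were 49907.8 and 277827, a ratio of 5.57. For Yp3 they were 66326.2 and 280578, a ratio of 4.23. The fold changes given in the authors' deposited table were smaller than these ratios of means: 2.40 for Yp1, 5.22 for Yp2 and 3.68 for Yp3. Only Yp2 and fit, a fat body gene described further on, had a fold change of at least 5 in size in the authors' deposited table. Over 26 genes with a mean count of at least 1000 in the controls and a ratio of means of at least 2, the deposited fold was a median of 0.816 of the ratio of means (range 0.482 to 0.974), against 0.66 for Yp1, 0.938 for Yp2 and 0.87 for Yp3. The sources used here do not say which step makes the fold differ from the ratio.

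The genes lie on the X chromosome, at coordinates that are the same in the deposited table (Ensembl build 82) and in the Ensembl annotation of the BDGP6.54 assembly. Yp2 (FBgn0005391) spans X:10050951-10052636 on the minus strand and has 2 exons. Yp1 (FBgn0004045) spans X:10053811-10055498 on the plus strand and also has 2 exons, so the pair is transcribed in opposite directions from starts separated by 1174 bases. Yp3 (FBgn0004047) lies at X:13759546-13761547 on the plus strand, 3704047 bases from the end of Yp1, and has 3 exons. The pair that varied in the same order within each food, Yp1 and Yp3, was therefore not the neighbouring pair.

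Yp1 shares its position with an antisense gene, which bears on every value of Yp1. asRNA:CR45601 (FBgn0267161), at X:10054235-10055109 on the minus strand, lies wholly inside the second exon of Yp1 and covers 875 of the 1611 exon bases of Yp1. It was chosen for description after its values were seen, as the gene overlapping Yp1. Its FPKM was 1366, 799 and 1037 in the controls and 4268, 3436 and 4055 under spermidine, so it was above Yp1 in all 6 libraries. The ratio of the antisense gene to Yp1 stayed between 2.80 and 2.97, while both moved together between libraries and foods. In the authors' deposited table its mean normalized count was 0 in both foods. Whether strand was used in counting is not stated, so reads of Yp1 and of the antisense gene cannot be told apart here. No gene overlapped Yp2 or Yp3.

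With the fragments of the antisense gene added to Yp1, per exon base of Yp1, the level of Yp1 was 949 ± 249 in the controls and 3470 ± 376 under spermidine (SD, n = 3 each). The difference between the foods was then 1.90 on the log2 scale, against 1.88 without the addition. The combined Yp1 value over Yp2 was 1.73, 1.10 and 1.28 in the controls and 1.06, 0.752 and 0.884 under spermidine. Over Yp3 it was 1.08, 0.888 and 0.914 in the controls and 0.860, 0.827 and 0.812 under spermidine. The lower share of Yp1 under spermidine was present under both ways of counting. Because the ratio of the antisense gene to Yp1 was nearly the same in each library, the addition could hardly change that result. The order of the 3 genes by level was not the same. The combined Yp1 exceeded Yp2 in the controls in each library, which Yp1 alone did in none. It also exceeded Yp2 in spermidine replicate 1 (1.06) and Yp3 in control replicate 1 (1.08).

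The mean counts held a related difference. Per kilobase of exon, the authors' deposited table gives 12400 normalized counts for Yp1 in the controls, 30800 for Yp2 and 35500 for Yp3. Over the 736 exon bases of Yp1 outside the antisense gene alone, the deposited count of Yp1 corresponds to 27200 per kilobase in the controls and 98700 under spermidine. Under spermidine the values for Yp2 and Yp3 were 172000 and 150000 per kilobase in the authors' deposited table. The sources used here do not say how reads in the overlapping bases were assigned.

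Other genes beside the yolk protein genes did not pass the test between the foods. Cht6, a chitinase gene that ends 148 bases from Yp2, had an FPKM of 3.17 ± 0.229 in the controls and 3.44 ± 0.200 under spermidine (limma adjusted p = 0.53). CG15312, 131 bases from the end of Yp1, had 58.9 ± 1.94 and 56.9 ± 0.329 (limma adjusted p = 0.482). The values of Cht6 overlapped between the foods. Those of CG15312 and lncRNA:CR45602 did not, with all 3 spermidine libraries lower, only slightly for CG15312. Among all tested genes, 10.7% were separated in that direction. lncRNA:CR45602 had an FPKM of 1.21 ± 0.172 and 0.694 ± 0.140 (limma adjusted p = 0.0939), and asRNA:CR45185 had 0.572 ± 0.0525 and 0.529 ± 0.118 (limma adjusted p = 0.83).

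None of the 4 tested genes around Yp3 passed either. Rtc1, 948 bases away, had an FPKM of 7.70 ± 0.681 in the controls and 8.51 ± 0.0674 under spermidine (limma adjusted p = 0.339). rdgB, which encodes a phosphatidylinositol transfer protein of photoreceptors and lies 1205 bases away, had 69.5 ± 2.28 and 67.6 ± 3.63 (limma adjusted p = 0.711). CtsB, a cathepsin gene, had adjusted p = 0.799 and amrt had adjusted p = 0.709 in the limma test. CG2990, Gr9a, CG32625 and asRNA:CR43833 were too low to be tested.

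**Figure D4:**
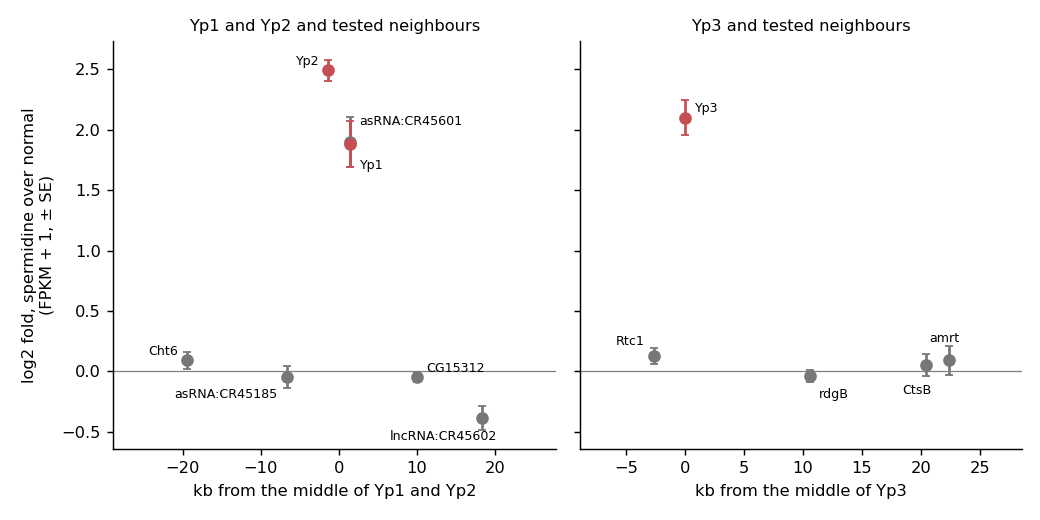
Log2 difference between the foods (log2(FPKM + 1), ± SE) of the yolk protein genes in red and of the tested neighbouring genes in grey, against distance in kilobases from the middle of the Yp1 and Yp2 pair and of Yp3. Apart from the antisense gene inside Yp1, the neighbours lie between -0.39 and 0.13, and Yp1, Yp2 and Yp3 at 1.88, 2.49 and 2.10.

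Of the receptors that take up yolk or related lipoproteins, the yolk receptor itself was near 0 in these libraries. Its gene, yl, was listed at an FPKM between 0 and 0.0121 in the 6 libraries and was not tested. Of 6 tested genes of this list of 7, LpR2, a lipophorin receptor gene, was higher and none was lower, with a median log2 difference of 0.15 against 0.02 over all tested genes. LpR2 had an FPKM of 70.1, 68.9 and 71.9 in the controls and 82.1, 77.8 and 79.5 under spermidine (log2 difference 0.18, SE 0.0354, limma adjusted p = 0.0454). That call was lost when any 1 library was left out, with adjusted p between 0.0915 and 0.151, and also under both other scalings and without a filter on low values.

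None of 21 tested regulators of yolk protein genes, from a list of 23 covering sex determination, fat body identity, ecdysone and juvenile hormone, passed the test in either direction, and the list's median log2 difference was -0.02. dsx, which encodes the sex-specific regulator of Yp1 and Yp2, had an FPKM of 2.60 ± 0.148 in the controls and 2.94 ± 0.325 under spermidine (limma adjusted p = 0.454). The member with the smallest p was srp, a GATA factor gene of the fat body. Its FPKM was 1.89, 1.13 and 1.81 in the controls and 2.76, 2.86 and 2.94 under spermidine (limma adjusted p = 0.0611). gce, which encodes a juvenile hormone receptor, had an FPKM of 18.3 ± 0.763 and 16.0 ± 0.241 (limma adjusted p = 0.0714). At an unadjusted limma p under 0.05, srp was higher and gce lower and the other 19 gave nothing. Such a p was found for 2186 of all 10392 tested genes, in either direction. The authors' deposited p-values, adjusted over the tested genes, gave 2 higher and 5 lower, beside 850 and 905 of all tested genes. With each library rescaled to the same sum, limma called 1 regulator higher and 3 lower, beside 354 and 859 of all tested genes. With median-ratio scaling it called 1 lower, beside 225 of all tested genes.

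Dosage compensation genes, which act on the male X chromosome, gave no call among 6 tested of 7, with a median log2 difference of -0.05. lncRNA:roX1 had an FPKM of 9.72, 8.80 and 8.15 in the controls and 6.72, 7.07 and 6.26 under spermidine (limma adjusted p = 0.0562). msl-2 had 13.7 ± 0.406 and 12.1 ± 0.195 (limma adjusted p = 0.0882). The groups did not overlap for these 2 genes, beside 10.7% of all tested genes with the spermidine libraries lower. They were the only members with an unadjusted limma p under 0.05, beside 2186 of all 10392 tested genes in either direction. The authors' deposited p-values gave 2 lower as well, beside 905 of all tested genes. Limma called 2 lower with each library rescaled to the same sum, beside 859 of all tested genes. It called 1 lower with median-ratio scaling, beside 225 of all tested genes. The sexes of the flies behind each library were not given.

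Among 5 sex-biased genes of the head fat body other than the yolk protein genes, 3 were tested, and fit was higher. fit, which encodes a secreted protein of the fat body with higher expression in females, had an FPKM of 60.7, 57.6 and 64.3 in the controls and 555, 435 and 464 under spermidine. Its difference was 2.97 on the log2 scale (SE 0.0958, limma adjusted p = 0.000149), larger than that of each yolk protein gene, and the call was kept without each library in turn. to, a gene of the fat body with higher expression in males, had an FPKM of 1.08 ± 0.584 and 1.17 ± 0.263 (limma adjusted p = 0.845), and Obp99b had 1.26 ± 0.301 and 1.71 ± 1.21 (limma adjusted p = 0.803). Cyp4d21 and sxe2 were too low to be tested. Of 25 genes of the lipase family to which yolk proteins are related, 4 were tested and CG5162 was higher, with 2.53 ± 0.716 and 6.22 ± 0.882 (log2 difference 1.05, SE 0.164, limma adjusted p = 0.0255). The call of CG5162 was lost without control replicate 1 or 2 or without spermidine replicate 1 or 3, with adjusted p up to 0.113, and 19 of the 25 genes were below an FPKM of 0.5 in each library.

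Markers of the cell types known to make yolk proteins were read beside them. Of 12 fat body markers 8 were tested, and 3 were higher and none lower, beside 3.2% and 1.52% of all tested genes. The median log2 difference of the list was 0.90. The summed FPKM of the list was 269, 203 and 260 in the controls and 1210, 764 and 963 under spermidine. The groups of sums did not overlap, beside 17.2% of all tested genes separated in that direction. Besides fit, Mtp, which encodes the microsomal transfer protein that loads lipoproteins with lipid, was higher, with 16.5 ± 0.990 and 30.7 ± 1.84 (log2 difference 0.86, SE 0.0625, limma adjusted p = 0.00361). Apoltp, which encodes a lipid transfer particle of the haemolymph, was higher with 13.4 ± 1.77 and 26.8 ± 4.04 (limma adjusted p = 0.0174), a call that was lost without control replicate 2 or spermidine replicate 3, with adjusted p up to 0.0893. The storage protein gene Lsp2 had an FPKM of 1.22, 2.67 and 0.814 in the controls and 319, 14.5 and 184 under spermidine (limma adjusted p = 0.0521).

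The yolk protein genes did not keep a fixed ratio to fat body markers. Their summed FPKM was 37.7, 30.4 and 32.1 times that of fit in the controls and 17.0, 20.6 and 21.1 times under spermidine. Relative to apolpp, which encodes the apolipoprotein of the main haemolymph lipoprotein and was chosen after its values were seen, the same sum was 14.7, 17.8 and 14.2 times in the controls and 48.6, 37.9 and 48.3 times under spermidine. The ratio therefore was lower against fit and higher against apolpp. It was also lower against Lsp2 (1880, 656 and 2540 in the controls, 29.6, 616 and 53.1 under spermidine). Against to, a gene of low FPKM, it was higher (1300, 2370 and 2740, then 8610, 9330 and 6670). The other called markers, Mtp and Apoltp, had log2 differences of 0.86 and 0.95, below that of each yolk protein gene. The part of fat body cells in the levels of Yp1, Yp2 and Yp3 was not tested.

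No gene of the ovary lists passed the limma test or, by the authors' deposited p-values, the adjusted threshold, and grk alone had an unadjusted limma p under 0.05. Of 19 genes of the vitelline membrane and chorion, the layers of the eggshell made by follicle cells, 6 were tested and none passed in either direction, with a median log2 difference of 0.10. Their summed FPKM was between 13.1 and 15.8 in the controls and between 14.9 and 17.4 under spermidine. Most of that sum came from Cp7Fa, Cp7Fb and Cp18. Of the 19, 12 were below 0.5 in each library, among them Vm26Ac and Cp16 at 0. Among the genes too low to be tested, Cp15 was listed at 0.0588, 0 and 0 in the controls and 0.825, 0.245 and 0.365 under spermidine, and dec-1 at 0.00645, 0.0672 and 0.0465 against 0.356, 0.0703 and 0.279. Cp15, dec-1 and yellow-g were the 3 of the 19 eggshell genes whose groups did not overlap, all higher under spermidine. Among all tested genes the share was 17.2% in that direction, and of these 3 only yellow-g was tested. Cp36 had a mean of 0.0136 in the controls and 0.213 under spermidine, and Cp38 had 0.0141 and 0.122, with overlap between the groups. The smallest p were those of yellow-g (0.410 ± 0.134 and 0.614 ± 0.125, limma adjusted p = 0.369) and Cp7Fc (1.48 ± 0.137 and 1.71 ± 0.203, limma adjusted p = 0.468).

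Of 11 germ line genes of the ovary, 4 were tested and none passed, with a median log2 difference of -0.14 and a summed FPKM between 4.28 and 4.89 in the controls and between 3.89 and 4.03 under spermidine. grk had 0.972 ± 0.242 and 0.531 ± 0.0831 (limma adjusted p = 0.137), and vas had 0.913 ± 0.143 and 0.659 ± 0.0995 (limma adjusted p = 0.282). Male reproductive tract genes were near 0 as well: 10 of 14 were below 0.5 in each library and 4 of these were at 0. Neither of the 2 tested, betaTub85D (limma adjusted p = 0.972) and Mst87F (limma adjusted p = 0.985), passed.

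Markers of oenocytes and haemocytes were also read, and those called were higher under spermidine. Oenocytes are lipid-processing cells of the body wall that lie beside fat body. Of 7 oenocyte genes, 1 was not found in the table and 5 were tested. Of these, 4 were higher, beside 3.2% of all tested genes, and the median log2 difference was 1.1. The summed FPKM was between 257 and 338 in the controls and between 350 and 431 under spermidine. Most of that sum came from Desat1, which was not called and overlapped between the foods (292 ± 45.8 and 333 ± 30.5, limma adjusted p = 0.436). Cyp4g1, which encodes the enzyme of the last step of hydrocarbon synthesis, had 6.32 ± 4.59 and 49.9 ± 8.32 (limma adjusted p = 0.0312). That call was lost without control replicate 3, without each of the spermidine libraries and without a filter on low values, with adjusted p up to 0.128. Fad2, a desaturase gene of female pheromone synthesis, had 0.551 ± 0.481 and 6.35 ± 1.32 (limma adjusted p = 0.00915), lost only without spermidine replicate 3, at an adjusted p of 0.0653.

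The other 2 called oenocyte genes reached the FPKM filter of 0.5 in the spermidine libraries alone, so they could enter the test only because they were high there. eloF, a fatty acid elongase gene of hydrocarbon synthesis, was listed at 0.0491, 0.185 and 0.127 in the controls and 1.48, 1.56 and 1.16 under spermidine. FASN2, a fatty acid synthase gene, was listed at 0.107, 0.193 and 0.172 in the controls and 0.623, 1.12 and 0.801 under spermidine. With no filter on any gene, the limma adjusted p was 0.0119 for eloF, 0.0467 for FASN2 and 0.0241 for Fad2, which had 1 control library at the filter. With the filter, the call of FASN2 was lost whichever library was left out.

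Of 10 haemocyte markers 9 were tested, and Sr-CI, a scavenger receptor gene, was higher with 4.28 ± 0.695 and 7.85 ± 0.645 (limma adjusted p = 0.0212). The call of Sr-CI was kept without control replicate 1 and lost without any other library, with adjusted p up to 0.0767. The median log2 difference of the haemocyte list was 0.25. At an unadjusted limma p under 0.05, 4 haemocyte genes were higher, namely Sr-CI, NimC1, eater and crq. Over all 10392 tested genes, 2186 had such a p in either direction. None of the 4 overlapped between the foods, beside 17.2% of all tested genes with the spermidine libraries higher. The authors' deposited p-values gave 4 higher as well, beside 850 of all tested genes. Over all the lists together, 10 of 106 tested genes were higher and 1 was lower, beside 3.2% higher and 1.52% lower of all tested genes, and 8 of the 10 had a control library at the filter.

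The labelled tissue was checked on neuron and glia markers. The 8 neuron markers were all tested and had a summed FPKM between 1850 and 1960 in the controls and of 1800 in each spermidine library, with a median log2 difference of -0.12. Syn, which encodes a synaptic vesicle protein, was lower, at 158 ± 1.81 and 140 ± 2.98 (limma adjusted p = 0.0423), and the call was lost whichever library was left out, with adjusted p between 0.0725 and 0.142. At an unadjusted limma p under 0.05, Syt1, Syn, cac and Rdl, 4 of the 8, were lower. Over all 10392 tested genes, 2186 had such a p in either direction. The authors' deposited p-values gave 6 lower, beside 905 of all tested genes. Limma gave 3 lower with each library rescaled to the same sum, beside 859 of all tested genes. The 7 glia markers gave no call, with a summed FPKM between 1830 and 2090 and between 2060 and 2170. The smallest p of that list were those of wrapper (limma adjusted p = 0.328) and nrv2 (limma adjusted p = 0.393). No glia, photoreceptor, muscle, gut or male tract marker had an unadjusted limma p under 0.05 or a call from the authors' deposited p-values.

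Control replicate 1 stood apart in photoreceptor and muscle markers. The 11 photoreceptor markers summed to an FPKM of 1550 in that library, against 10900 and 6950 in the other control libraries and 14100, 10100 and 12300 under spermidine. None of the 11 passed the test, and Rh4 (limma adjusted p = 0.29) and Rh6 (limma adjusted p = 0.299) had the smallest p. Muscle markers summed to 61.6 in that library and between 9.62 and 36.0 in the other 5, and none of 5 tested of 7 passed, with wupA (limma adjusted p = 0.64) and up (limma adjusted p = 0.714) first. Gut markers, 3 tested of 7, gave no call either, with Amy-p (limma adjusted p = 0.264) and betaTry (limma adjusted p = 0.496) first. That library had the highest Yp1 and Yp3 in the controls. Without it the log2 differences of Yp1, Yp2 and Yp3 between the foods were 2.07, 2.50 and 2.20.

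**Figure D5:**
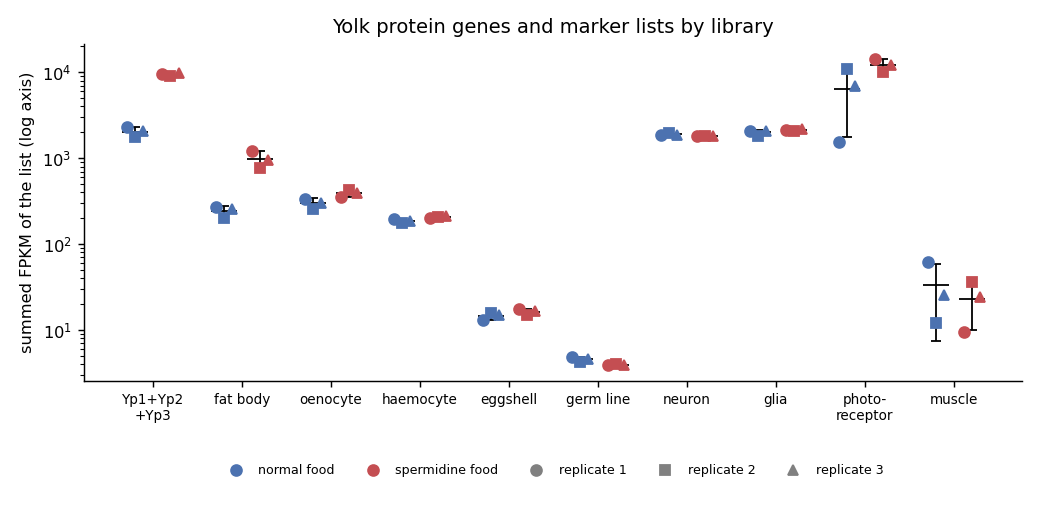
Summed FPKM on a log axis of the 3 yolk protein genes and of marker lists in each of the 6 libraries, with the mean and SD of each food in black. The yolk protein genes (2036 against 9390) and the fat body list separate the foods, higher under spermidine. The oenocyte and haemocyte lists do so narrowly, with highest control sums of 338 and 198 and lowest spermidine sums of 350 and 202. The neuron and germ line lists also separate the foods, lower under spermidine. The sum of the eggshell genes overlaps between the foods, although the values of Cp15, too low to be seen in it, do not. Control replicate 1 is the low point of the photoreceptor list.

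The 5 genes whose levels were most like those of the yolk protein genes were taken from 9619 tested genes with a mean FPKM of at least 1. Likeness was the Pearson correlation over the 6 libraries with the mean log2(FPKM + 1) of Yp1, Yp2 and Yp3. GNBP3, a pattern recognition gene of the antifungal response, had a correlation of 0.9988 and an FPKM of 4.96, 4.51 and 4.69 in the controls and 9.78, 9.18 and 9.59 under spermidine. CG9649 followed with 0.9984 and a mean FPKM of 5.08 ± 0.290 and 9.32 ± 0.399. Ifrd1 followed with 0.9982, although its levels differed little, at 45.3 ± 0.240 and 47.4 ± 0.116. Sodh1, a sorbitol dehydrogenase gene, had 0.9978 with 2.85 ± 0.458 and 11.6 ± 1.29, and Cyp4e2, a cytochrome P450 gene, had 0.9975 with 6.54 ± 0.933 and 17.3 ± 1.06.

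The correlation at rank 100 was still 0.976, and the points share their libraries, so the order among such genes carries little weight. Sodh1 had the largest log2 difference of the 5, 1.71, which is below that of each yolk protein gene. Since these genes were selected for following the yolk protein genes across the same libraries, no test is given for them.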

How the data were processed

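RNA of fly brains was sequenced in 3 libraries from each food. The submitters' processing notes name DESeq, HTSeq and Cufflinks but no versions, and the sources used here give neither the aligner nor the use of strand. The authors deposited an FPKM value and a status for each gene and library, with Ensembl build 82 gene models per the file headers. The authors' mean normalized count per food is treated as a signal, since it has no value per library. Their deposited fold change carries a sign and is treated as a score, and their deposited p-value is unadjusted. The sheet with all 17483 genes was used, 1 of the 11 deposited. Depth per library is unknown, so no counting intervals are given.

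FPKM values are not counts, so no count test was run. The 10392 genes that reached an FPKM of 0.5 in 3 or more libraries were tested with limma 3.58.1 in R 4.3.3 on log2(FPKM + 1), two-sided, with an intensity trend, no covariates and Benjamini-Hochberg adjustment over all of them. This scale understates the changes of genes of low FPKM. Failed estimates were treated as missing, in all libraries for 184 genes and in some for 31. The code was tested on simulated data. Current symbols were found for 17179 identifiers.

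The yolk protein genes and the lists of related genes and cell markers were chosen with earlier results of these data known. Of each list, up to 4 genes past the threshold with the smallest p are named, or 2 where none passed, besides yl, dsx, the nearest 3 genes on each side of the Yp1 and Yp2 pair and of Yp3, and the 5 genes most like them. Other genes with values were chosen after their values were seen. Among them were apolpp, Lsp2, to, Obp99b and untested or uncalled eggshell, oenocyte, haemocyte and neuron genes. Alternatives comprised scaling, pseudocount, filter, trend, a replicate block, each library left out, and the authors' values.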

Additional observations from a re-analysis of the deposited data

How the results depend on the processing

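Higher levels under spermidine were found for Yp1, Yp2 and Yp3 under each alternative run, and the ratios between them kept their direction. Leaving out 1 library gave log2 differences between 1.71 and 2.07 for Yp1, between 2.45 and 2.55 for Yp2 and between 1.97 and 2.20 for Yp3. The same gave between -0.74 and -0.43 for the log2 ratio of Yp1 to Yp2, between -0.26 and -0.13 for Yp1 to Yp3 and between 0.28 and 0.50 for Yp2 to Yp3. The fold changes of the authors' deposited table, as log2, were 1.26, 2.38 and 1.88 for Yp1, Yp2 and Yp3, and rescaling each library to the same sum gave 2.39 for Yp2. Adding the antisense fragments to Yp1 was an alternative chosen after seeing the data, and it scales Yp1 almost equally in each library. It gave 1.90 for Yp1, -0.60 for the ratio of Yp1 to Yp2 and -0.20 for the ratio of Yp1 to Yp3.

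Counts of calls moved more. Against 333 higher and 158 lower genes and 11 called genes of the lists, rescaling each library to the same sum gave 859 lower and 20 of the lists, and no filter gave 177, 72 and 7. Leaving out 1 library gave 49 to 238 higher, 6 to 94 lower and 3 to 7 of the lists; each of the 6 libraries moved the lower calls, and all but control replicate 1 and spermidine replicate 2 moved the higher calls, by over 1.5 times. The authors' deposited p-values, adjusted here, gave 850, 905 and 31. At an unadjusted p under 0.05, limma called 2186 of the 10392 tested genes, in either direction. The cause of these shifts was not tested. The replicate block gave 179 higher and 73 lower genes and ended the calls of FASN2, LpR2 and Syn, but same-numbered libraries did not vary together (correlations of -0.0513, -0.103 and 0.018), so the numbers are not taken as pairs. LpR2 also lost its call under both other scalings, without a filter and without the intensity trend, Syn without a filter and without the trend, and Cyp4g1 and CG5162 without a filter. Without counts per library, edgeR and DESeq2 could not be run, and low FPKM values have no depth to set their error.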
